A study of Mus musculus with 39 samples.

Results

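Glycolysis and the handling of its end product, pyruvate, were described through 40 genes, chosen by name to cover glucose uptake, the glycolytic enzymes, lactate production and transport, and the entry of pyruvate into mitochondria. All 40 were found in the count files, which list 55573 genes, and all 40 were among the 18394 genes that passed the expression filter. RNA was sequenced from the endoneurium of mouse sciatic nerves, that is, the inside of the nerve with its outer sheath, the perineurium, stripped off. The 39 libraries came from 22 mice, of which 17 gave both nerves: the crushed nerve distal to the injury (injured) and the uncrushed nerve of the other side (healthy), taken 2 or 4 weeks post crush (wpc). Lepr-ctrl mice were Leprfl/fl, with both copies of the leptin receptor gene floxed and no Cre. Lepr-cKO mice were Leprfl/fl::Dhh-Cre, in which Cre under the Dhh (desert hedgehog) promoter acts in Schwann cells, the glia that myelinate peripheral axons. All mice were on a C57BL/6 background, of both sexes and between 2 and 4 months old. Since Lepr-ctrl mice carried no Cre, Cre itself and the loss of Lepr cannot be told apart, and every library holds RNA of all endoneurial cells, so that fewer cells of a type and less RNA per cell cannot be told apart either.

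At 2 wpc there were 5 healthy and 5 injured Lepr-ctrl libraries, and 6 healthy and 5 injured Lepr-cKO libraries. At 4 wpc there were 5 healthy and 4 injured libraries of each genotype. The total count per library ran from 10905806 to 45016322, with a median of 27752451. Levels are given as CPM, counts relative to the scaled total of the library, and the values of a group stand in order of animal number, so that replicate 4 of a group is the fourth value of its lists. A gene was called changed where the adjusted p of edgeR's quasi-likelihood test, over all 18394 genes, was under 0.05.

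The injured Lepr-cKO library of 1 animal at 2 wpc stood apart. In it, 14 of 14 skeletal muscle markers had counts, with a summed level of 52758 CPM and Acta1 alone at 10440 CPM, whereas the same 14 genes summed to at most 48.0 CPM in every other library. Muscle-type members of the list were high in this library: Pgam2 was at 742 CPM, Eno3 at 2694 CPM and Pfkm at 1314 CPM. This library with muscle RNA was left out of all values and tests unless stated, which leaves 38 libraries and 4 injured Lepr-cKO libraries at 2 wpc. Reads from genes of the mitochondrial genome took 1.92% to 4.25% of the counts in healthy nerves and 2.95% to 33.04% in the injured nerves fitted. Within the injured nerves the share was highest in replicate 4 of Lepr-ctrl at 2 wpc (33.04%) and replicate 3 of Lepr-cKO at 2 wpc (29.7%) and lowest in replicate 1 of Lepr-cKO at 4 wpc (2.95%).

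The targeted gene, Lepr, did not pass the test between genotypes in whole endoneurium. Its level in healthy nerves was 9.36 ± 1.69 CPM (SD, n = 5) in Lepr-ctrl and 10.2 ± 4.07 CPM (SD, n = 6) in Lepr-cKO mice at 2 wpc. In injured nerves it was 53.6 ± 17.8 CPM (SD, n = 5) and 73.3 ± 38.1 CPM (SD, n = 4) at 2 wpc, and 44.3 ± 21.2 CPM (SD, n = 4) and 30.1 ± 5.23 CPM (SD, n = 4) at 4 wpc. The genotype difference in injured nerves had an edgeR adjusted p of 0.943 at 2 wpc and 0.335 at 4 wpc. Counts over the whole gene in a mixed tissue therefore did not check the genotype labels.

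Glycolysis breaks glucose down to pyruvate in the cytosol, and its pace is set mainly by glucose uptake, hexokinase, phosphofructokinase and pyruvate kinase. Pyruvate is then either reduced by lactate dehydrogenase to lactate, which leaves or enters cells through monocarboxylate transporters, or carried into mitochondria and oxidised by the pyruvate dehydrogenase complex, which PDH kinases switch off. In peripheral nerve, Schwann cells are thought to pass lactate to the axons they wrap, and several of the steps are made by isoenzymes that differ between cell types and states.

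Most of the 40 genes moved after crush, in both directions, and the isoenzymes of one step often moved apart. In Lepr-ctrl nerves at 2 wpc, 14 of 40 genes rose and 13 fell, where 35.1% of all genes tested rose and 30.7% fell. In Lepr-cKO nerves at 2 wpc, 13 rose and 15 fell (35.4% and 29.6% of all genes). At 4 wpc, 15 rose and 13 fell in Lepr-ctrl nerves (32.7% and 32.3% of all genes), and 10 rose and 11 fell in Lepr-cKO nerves (30.2% and 27.1% of all genes). The shares of the list were thus near those of all genes, and the median log2 fold change of the 40 genes was 0.11, 0.00, 0.20 and -0.01 in these 4 comparisons, against 0.09, 0.08, 0.01 and 0.05 over all genes. Changes that were both called and past 2-fold were found for 11, 13, 10 and 8 of the 40 genes, where 34.6%, 34.6%, 36.5% and 28.2% of all genes met that rule. Injured and healthy libraries did not overlap for 24, 19, 27 and 18 of the 40 genes, against 47.9%, 48.1%, 55.1% and 42.1% of all genes.

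In all 4 comparisons 20 genes were called in the same direction. The share of all genes that met this rule is not given here, so the count is not set against it. Hk2, Hk3, Pfkp, Pfkfb1, Pfkfb2, Pfkfb4, Ldha, Pdhb and Pdk3 rose in all 4, and Hk1, Pfkm, Aldoa, Aldoc, Gapdh, Eno1, Ldhb, Mpc1, Pdha1, Pdk2 and Pdk4 fell in all 4. With the animal as a replicate block, the rise of Pfkfb2 in Lepr-ctrl nerves at 4 wpc did not pass (edgeR adjusted p = 0.0548). A further 8 genes rose in some comparisons, 3 fell in some, and Pkm and Tpi1 passed the test in both directions, although the fall of Tpi1, in Lepr-cKO nerves at 2 wpc, did not pass with the animal as a replicate block (-0.22 on the log2 scale, edgeR adjusted p = 0.12). Slc2a1, Slc2a4, Pfkl, Pfkfb3, Pgam1, Slc16a7 and Dlat passed it in none. The 2 wpc and 4 wpc comparisons, and the 2 genotypes, used different nerves. The same 14 muscle markers stayed at or below 48.0 CPM in all of these libraries.

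**Figure D1:**
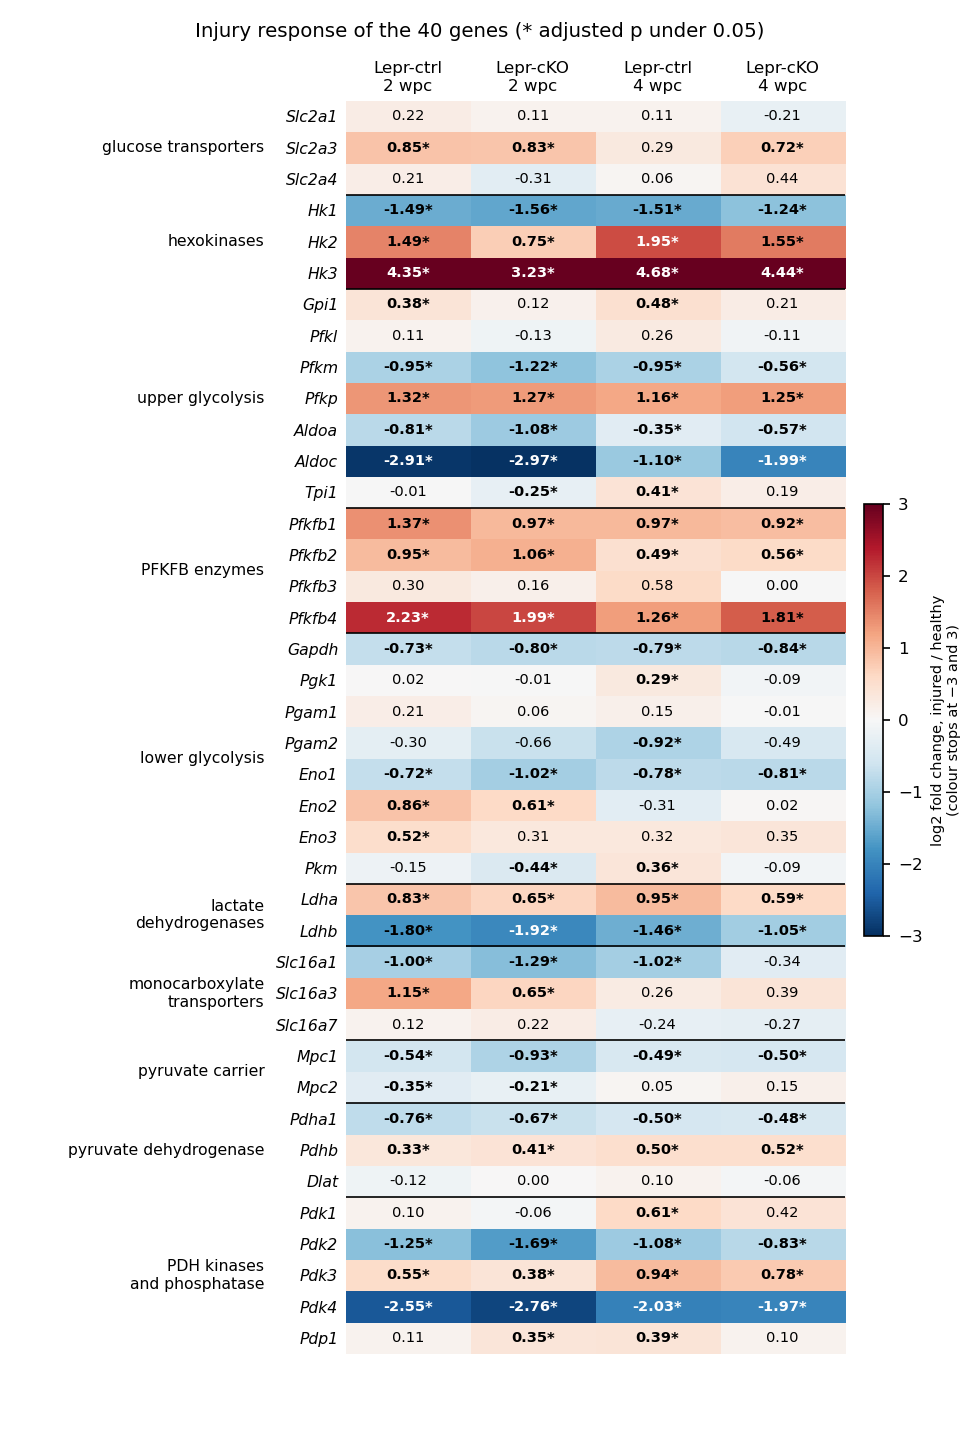
Log2 fold change (injured over healthy) of each of the 40 genes, by role from top to bottom, in Lepr-ctrl and Lepr-cKO nerves at 2 and 4 wpc; colour gives direction and size, and an asterisk marks an edgeR adjusted p under 0.05. Within hexokinases, phosphofructokinases, lactate dehydrogenases and PDH kinases, some members rose while others fell. Over all 40 genes the range was from -2.97 (Aldoc) to 4.68 (Hk3).

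The tissue around these genes changed at the same time. Of 9 myelin and Schwann cell markers, 6 fell and none rose in Lepr-ctrl nerves at 2 wpc, and their summed level went from 50613 ± 4429 to 14829 ± 5626 CPM (SD, n = 5 each). Of 10 macrophage markers, 9 rose and none fell, and their sum, led by Lyz2, went from 199.9 ± 44.5 to 1895 ± 807 CPM (SD, n = 5 each). At 4 wpc the myelin sum of injured nerves was 16573 ± 2695 CPM (SD, n = 4) in Lepr-ctrl and 26131 ± 7902 CPM (SD, n = 4) in Lepr-cKO mice, and the macrophage sum was 2873 ± 858 and 1691 ± 347 CPM. None of the 9 myelin and Schwann cell markers was at 0 in any library, and neither was Lyz2. Of 6 adipocyte markers, led by Fabp4, 6 rose in Lepr-ctrl nerves at 2 wpc, and their sum ran from 0.341 to 0.768 CPM in healthy and 14.8 to 171.2 CPM in injured libraries, while it reached 163.8 CPM in healthy Lepr-cKO nerves at 2 wpc, where no adipocyte marker passed the test after injury. Markers of repair Schwann cells, led by Ngfr, rose for 7 of 8 genes, from a sum of 140.95 ± 19.4 to 656 ± 207 CPM. Proliferation markers, led by Top2a, rose for 6 of 6, from 8.14 ± 2.16 to 125.33 ± 47.6 CPM, and endothelial markers, led by Cldn5, for 4 of 6, from 393 ± 32.3 to 749 ± 190 CPM (SD, n = 5 each, Lepr-ctrl at 2 wpc). None of these 3 lists had a gene that fell. Of the fibroblast markers 1 rose and 3 fell, of the perineurial markers 2 rose and 1 fell, and no erythrocyte marker passed the test. The part of these shifts in the changes of the 40 genes was not tested.

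Upstream sequence of 6 genes that moved in opposite directions is given here, because genes of glycolysis are textbook targets of hypoxia-inducible factor, whose binding core is ACGTG or GCGTG. Each window is the 250 bases before the RefSeq transcription start on GRCm38.p6, written 5′ to 3′ on the strand of the gene. Capitals mark ACGTG or GCGTG read on either strand (so CACGT and CACGC as well), and the palindrome CACGTG holds ACGTG on both strands and is counted in both searches. Hk2 (chr6:82774455-82774704, minus strand), Pfkfb4 (chr9:108991652-108991901, plus strand) and Ldha (chr7:46845554-46845803, plus strand, the first of its 2 starts) belong to genes that rose in all 4 injury comparisons. Ldhb (chr6:142507958-142508207, minus strand) and Pdk4 (chr6:5496279-5496528, minus strand) belong to genes that fell in all 4, and Slc16a1 (chr3:104638414-104638663, plus strand) to a gene that fell in 3 of 4.
Hk2: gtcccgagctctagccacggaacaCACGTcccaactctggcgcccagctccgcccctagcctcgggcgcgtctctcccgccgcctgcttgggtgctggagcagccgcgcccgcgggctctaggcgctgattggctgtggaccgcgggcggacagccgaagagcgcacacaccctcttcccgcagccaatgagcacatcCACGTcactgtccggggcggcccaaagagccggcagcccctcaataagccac
Pfkfb4: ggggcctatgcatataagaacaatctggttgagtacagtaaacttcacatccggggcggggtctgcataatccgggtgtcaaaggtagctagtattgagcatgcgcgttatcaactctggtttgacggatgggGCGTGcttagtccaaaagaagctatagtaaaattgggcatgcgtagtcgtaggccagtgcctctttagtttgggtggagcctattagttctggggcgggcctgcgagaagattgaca
Ldha: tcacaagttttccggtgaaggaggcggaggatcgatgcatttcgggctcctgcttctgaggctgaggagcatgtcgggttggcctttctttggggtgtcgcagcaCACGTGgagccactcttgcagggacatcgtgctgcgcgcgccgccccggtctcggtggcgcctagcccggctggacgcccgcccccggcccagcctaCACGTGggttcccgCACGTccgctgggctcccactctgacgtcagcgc
Ldhb: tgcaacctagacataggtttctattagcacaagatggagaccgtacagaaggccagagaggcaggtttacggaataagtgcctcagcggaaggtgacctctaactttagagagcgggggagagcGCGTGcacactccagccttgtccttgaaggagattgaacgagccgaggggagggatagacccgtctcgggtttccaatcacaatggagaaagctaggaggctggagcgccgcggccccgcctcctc
Pdk4: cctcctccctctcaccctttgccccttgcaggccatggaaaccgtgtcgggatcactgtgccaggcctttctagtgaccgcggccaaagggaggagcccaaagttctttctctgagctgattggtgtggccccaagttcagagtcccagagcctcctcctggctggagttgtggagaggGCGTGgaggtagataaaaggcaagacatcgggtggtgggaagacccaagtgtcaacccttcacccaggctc
Slc16a1: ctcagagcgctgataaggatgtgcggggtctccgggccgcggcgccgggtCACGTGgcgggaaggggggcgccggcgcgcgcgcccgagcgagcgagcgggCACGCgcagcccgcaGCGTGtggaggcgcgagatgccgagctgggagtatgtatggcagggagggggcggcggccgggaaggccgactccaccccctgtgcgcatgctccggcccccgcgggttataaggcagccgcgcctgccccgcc
The window of Ldha held 5 matches and 2 copies of CACGTG, and that of Slc16a1 held 4 matches and 1 copy of CACGTG. The window of Hk2 held 2, and those of Pfkfb4, Ldhb and Pdk4 held 1 each.

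The letters did not separate genes that rose from genes that fell. RefSeq windows were matched for 36 of the 40 genes, with 56 starts in all, and Slc2a3, Slc2a4, Slc16a7 and Pdp1 had none. ACGTG or GCGTG was present in 41 of these 56 windows (73.2%), against 12679 of 32851 windows of all genes (38.6%). For genes that rose in all 4 comparisons it was present in 12 of 15 windows (80%), and for genes that fell in all 4 in 17 of 22 (77.3%). CACGTG was present in 6 of 56 windows of the list (10.7%) and in 6.02% of all windows. The windows of the list also had a higher GC content, with a median of 60.4% against 52.4% over all windows. A match is a run of letters and was not tested for binding.

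Among the glucose transporters only Slc2a3 was called in an injury comparison. Slc2a1 encodes GLUT1, the transporter of endothelial and glial cells, and was the most abundant of the 3 per length, with 96.4% of the family's CPM per kilobase of exon in healthy Lepr-ctrl nerves at 2 wpc. In Lepr-ctrl nerves at 2 wpc its level went from 211 ± 16.5 CPM when healthy to 246 ± 42.8 CPM when injured (SD, n = 5 each), a log2 fold change of 0.22 ± 0.20 (SE) that did not pass the test (edgeR adjusted p = 0.333). Slc2a3, which encodes the high-affinity transporter GLUT3, was at 6.41, 6.92, 7.08, 5.70 and 6.64 CPM in healthy and 12.3, 12.9, 10.9, 11.8 and 11.3 CPM in injured Lepr-ctrl nerves at 2 wpc. The groups did not overlap, and the gene rose 1.81-fold (edgeR adjusted p = 1.89e-06). In Lepr-cKO nerves Slc2a3 rose 1.77-fold at 2 wpc and 1.65-fold at 4 wpc (edgeR adjusted p = 3.21e-06 and 8.17e-05). In Lepr-ctrl nerves at 4 wpc its log2 fold change was 0.29 ± 0.15 (SE) and did not pass (edgeR adjusted p = 0.0828). Slc2a4, the insulin-regulated GLUT4 of muscle and fat, had a mean of 4.58 ± 1.21 CPM (SD, n = 5) in healthy Lepr-ctrl nerves at 2 wpc and was called in no injury comparison.

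The hexokinases, which trap glucose by phosphorylating it, moved in opposite directions. Hk1, the widely expressed form bound to mitochondria, was at 160.3, 146, 139, 152 and 175.9 CPM in healthy and 54.4, 65.6, 64.9, 43.1 and 47.4 CPM in injured Lepr-ctrl nerves at 2 wpc. Every injured library lay below every healthy one, and Hk1 fell 2.81-fold (log2 fold change -1.49 ± 0.17, SE, edgeR adjusted p = 2.20e-09). Lepr-cKO nerves at 2 wpc had 129.9 to 176.5 (median 166) CPM in 6 healthy libraries and 39.6, 52.7, 88.3 and 37.6 CPM in 4 injured ones. Replicate 3, at 88.3 CPM, was the highest injured library and still below all healthy ones, and the fall was 2.94-fold (edgeR adjusted p = 2.91e-09). At 4 wpc the level was 207, 184, 167.7, 183 and 206 CPM in healthy and 64.5, 77.2, 61.0 and 63.4 CPM in injured Lepr-ctrl nerves. In Lepr-cKO nerves at 4 wpc it was 214, 184, 184, 142 and 202 CPM in healthy and 108, 64.7, 65.1 and 76.4 CPM in injured libraries. Again the groups did not overlap, with a fall of 2.85-fold in Lepr-ctrl and 2.36-fold in Lepr-cKO nerves (edgeR adjusted p = 9.48e-09 and 5.77e-07).

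Hk2, the inducible hexokinase of muscle, fat and growing cells, rose from a low level. It was at 7.74, 6.92, 5.53, 6.77 and 7.44 CPM in healthy and 14.6, 19.2, 19.9, 21.5 and 21.4 CPM in injured Lepr-ctrl nerves at 2 wpc, with no overlap and a 2.81-fold rise (edgeR adjusted p = 1.56e-06). In Lepr-cKO nerves at 2 wpc it was at 4.65 to 12.3 (median 7.61) CPM in healthy and 15.2, 15.8, 8.30 and 12.6 CPM in injured libraries. These groups overlapped, since replicate 3 at 8.30 CPM lay within the healthy range, and the rise was 1.68-fold (edgeR adjusted p = 0.00589). At 4 wpc Hk2 was at 4.35, 5.05, 3.73, 4.61 and 7.27 CPM in healthy and 19.2, 17.6, 17.5 and 23.2 CPM in injured Lepr-ctrl nerves, and at 3.998, 3.62, 4.15, 6.83 and 10.1 and 17.5, 18.1, 13.2 and 19.0 CPM in those of Lepr-cKO mice. Both genotypes were without overlap, and the rise was 3.86-fold and 2.93-fold (edgeR adjusted p = 4.16e-08 and 3.21e-06). These are RNA levels. By western blot of endoneurium from reporter mice, the study reports less hexokinase protein after crush, for both HK1 and HK2.

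Hk3, the hexokinase known from myeloid cells, had the largest fold change of the 40 genes in all 4 comparisons. It was at 1.12, 2.66, 1.25, 1.69 and 1.59 CPM in healthy and 28.5, 22.5, 18.5, 77.2 and 22.8 CPM in injured Lepr-ctrl nerves at 2 wpc, and the highest value, 77.2 CPM, was in replicate 4. Without overlap, the rise was 20.4-fold (log2 fold change 4.35 ± 0.39, SE, edgeR adjusted p = 8.79e-12). In Lepr-cKO nerves at 2 wpc it was at 1.09 to 2.15 (median 1.75) CPM in healthy and 18.7, 24.6, 9.91 and 12.4 CPM in injured libraries, a 9.39-fold rise (edgeR adjusted p = 1.23e-09). Hk3 was again higher in every injured library at 4 wpc, at 49.5, 46.9, 37.4 and 70.4 CPM in Lepr-ctrl and 15.4, 29.4, 18.2 and 43.0 CPM in Lepr-cKO mice, against at most 2.499 CPM in healthy nerves. The rises at 4 wpc were 25.6-fold and 21.7-fold (edgeR adjusted p = 4.95e-12 and 5.07e-11). Of the 5 injured Lepr-ctrl libraries at 2 wpc, replicate 4 also had the highest macrophage marker sum, 3185 CPM against 1084 to 2107 CPM in the others, and the lowest myelin marker sum, 6203 CPM against 12902 to 20575 CPM. At 4 wpc the library with the highest Hk3 also had the highest macrophage sum in injured Lepr-cKO but not in injured Lepr-ctrl nerves. The part of macrophage content in the Hk3 change was not tested.

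**Figure D2:**
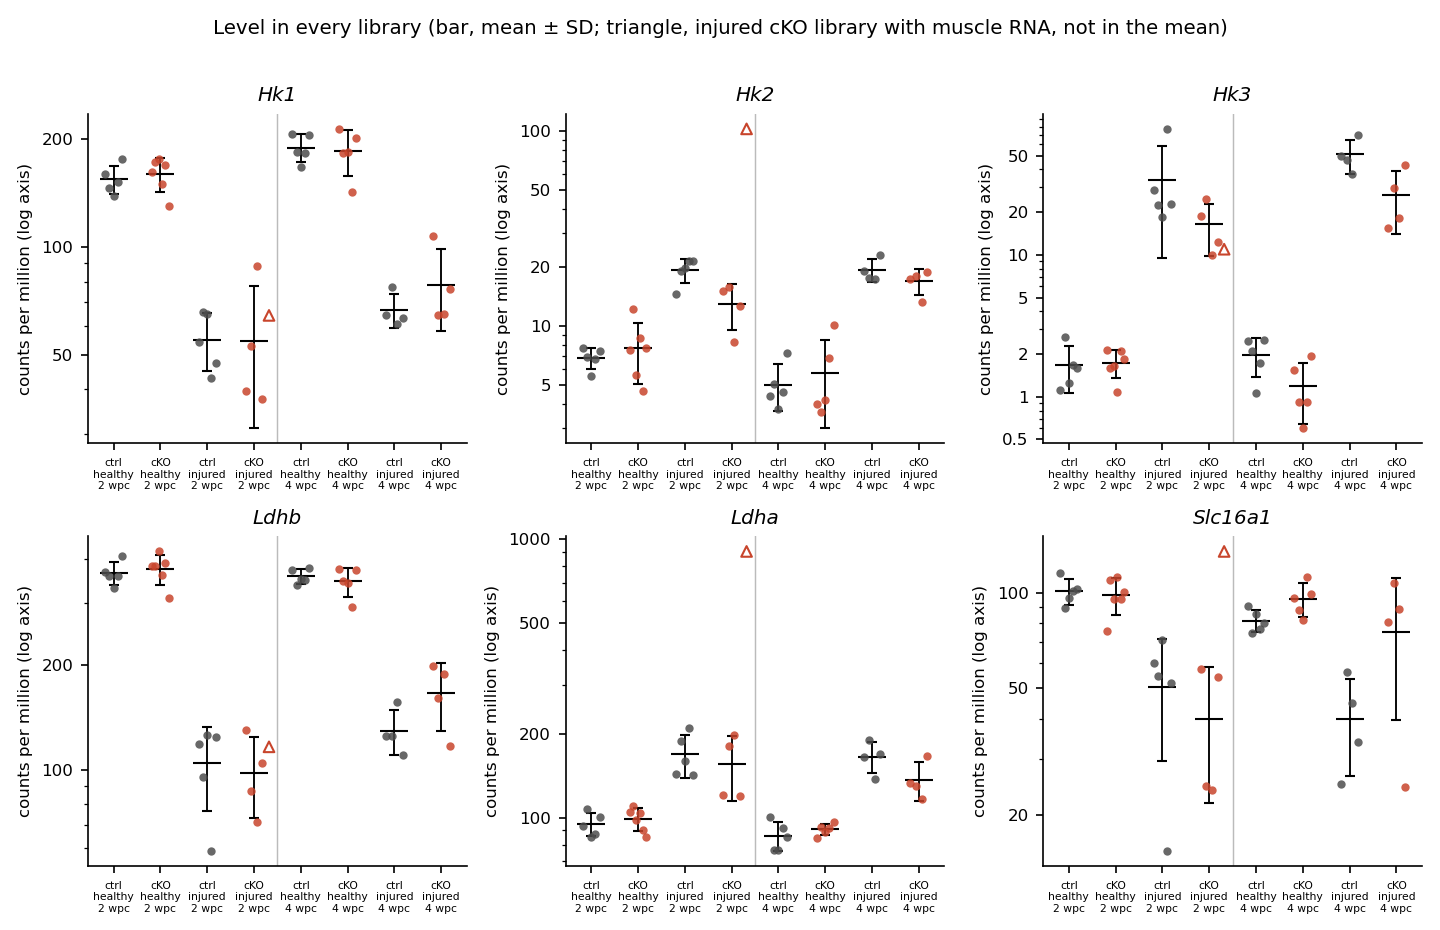
CPM (log axis) of 3 hexokinases, 2 lactate dehydrogenases and the lactate transporter Slc16a1 in every library, by group; dots are libraries, bars are the mean ± SD, and the open triangle is the injured Lepr-cKO library with muscle RNA, which is not in the mean. Hk1 and Ldhb fell without overlap after injury in both genotypes and at both times, and injured Lepr-cKO nerves at 4 wpc were split for Slc16a1, with 1 library at 24.5 CPM and 3 from 81.0 to 107 CPM.

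In the first steps of glycolysis, phosphofructokinase commits sugar to the pathway, and its muscle-type transcript fell while its platelet-type transcript rose. Pfkm, the muscle-type subunit, was at 79.6, 80.7, 69.3, 73.3 and 86.7 CPM in healthy and 40.9, 34.9, 39.8, 36.4 and 49.7 CPM in injured Lepr-ctrl nerves at 2 wpc. At 4 wpc it was at 84.1, 79.7, 75.4, 78.6 and 82.0 CPM in healthy and 41.2, 43.6, 43.1 and 37.5 CPM in injured Lepr-ctrl nerves. It fell without overlap both times, 1.93-fold at 2 wpc and 1.93-fold at 4 wpc (edgeR adjusted p = 4.96e-11 and 3.61e-10). In injured Lepr-cKO nerves Pfkm was at 35.6, 31.5, 31.0 and 39.2 CPM at 2 wpc and 58.1, 48.8, 46.5 and 54.2 CPM at 4 wpc. The falls against healthy Lepr-cKO nerves were 2.32-fold and 1.48-fold (edgeR adjusted p = 6.20e-13 and 8.20e-06). With the library with muscle RNA kept, the Pfkm change in Lepr-cKO nerves at 2 wpc turned to a log2 fold change of 1.86 (edgeR adjusted p = 0.00463). Pfkp, the platelet-type subunit, rose 2.49-fold in Lepr-ctrl nerves at 2 wpc, from 30.0 ± 2.39 to 74.8 ± 11.1 CPM (SD, n = 5 each, edgeR adjusted p = 6.63e-12), and Pfkl, the liver-type subunit, passed the test in no comparison.

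Aldolase, which splits the 6-carbon sugar, fell in both forms on the list, A and C. Aldoc, the brain-type aldolase found in glia, was at 8.13, 7.76, 6.53, 8.31 and 8.95 CPM in healthy and 0.843, 1.52, 1.60, 0.339 and 0.848 CPM in injured Lepr-ctrl nerves at 2 wpc. At 4 wpc it was at 6.24, 9.40, 6.22, 5.24 and 7.37 CPM in healthy and 3.22, 4.29, 1.32 and 4.11 CPM in injured Lepr-ctrl nerves. There was no overlap at either time, and the fall was 7.52-fold at 2 wpc (edgeR adjusted p = 1.26e-10) and 2.15-fold at 4 wpc (edgeR adjusted p = 0.00147). Injured Lepr-cKO nerves had 1.54, 1.07, 0.647 and 0.912 CPM at 2 wpc and 1.59, 1.65, 1.199 and 1.94 CPM at 4 wpc, falls of 7.82-fold and 3.96-fold (edgeR adjusted p = 4.04e-10 and 1.58e-06). Aldoa, the ubiquitous form and per length among the 2 highest of the 40 genes in healthy nerves, went from 633 ± 102 to 362 ± 35.8 CPM (SD, n = 5 each) in Lepr-ctrl nerves at 2 wpc, a 1.75-fold fall (edgeR adjusted p = 3.85e-08). Gpi1, which turns glucose 6-phosphate into fructose 6-phosphate, rose 1.30-fold and 1.39-fold in Lepr-ctrl nerves at 2 and 4 wpc (edgeR adjusted p = 0.00281 and 4.83e-04), and did not pass in Lepr-cKO nerves (edgeR adjusted p = 0.336 and 0.111).

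The PFKFB enzymes make and break fructose 2,6-bisphosphate, the strongest activator of phosphofructokinase, and none of the 4 fell. Pfkfb4 was at 16.5, 19.3, 16.8, 19.1 and 19.4 CPM in healthy and 132, 64.9, 61.4, 82.6 and 86.4 CPM in injured Lepr-ctrl nerves at 2 wpc, the highest in replicate 1. The rise was 4.69-fold without overlap (log2 fold change 2.23 ± 0.15, SE, edgeR adjusted p = 8.80e-15), the smallest p of the list in this comparison. In Lepr-cKO nerves at 2 wpc it was at 17.0 to 23.3 (median 18.8) CPM in healthy and 78.2, 76.0, 81.5 and 73.4 CPM in injured libraries, 3.98-fold higher (edgeR adjusted p = 7.02e-14). At 4 wpc Pfkfb4 was at 61.5, 43.2, 60.8 and 46.8 CPM in injured Lepr-ctrl and 73.9, 94.5, 59.5 and 65.4 CPM in injured Lepr-cKO nerves, against 19.8 to 24.5 CPM in healthy nerves of both genotypes. These were rises of 2.40-fold and 3.51-fold (edgeR adjusted p = 7.38e-09 and 8.19e-12). Pfkfb1 and Pfkfb2 rose in all 4 comparisons, by log2 fold changes of 0.92 to 1.37 and 0.49 to 1.06, although the Pfkfb2 call in Lepr-ctrl nerves at 4 wpc ended with the animal as a replicate block (edgeR adjusted p = 0.0548). Pfkfb3 had log2 fold changes of 0.00 to 0.58 that did not pass.

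Among the 8 genes of the later steps, from glyceraldehyde 3-phosphate to pyruvate, 2 rose and 2 fell in Lepr-ctrl nerves at 2 wpc, where 35.1% and 30.7% of all genes did. Eno2, the neuronal enolase, was at 53.3, 57.4, 59.5, 60.8 and 62.6 CPM in healthy and 126.2, 84.8, 72.3, 122 and 127 CPM in injured Lepr-ctrl nerves at 2 wpc, with no overlap. At 4 wpc its values were 68.1, 51.7, 60.9, 72.6 and 59.8 CPM in healthy and 53.1, 51.4, 53.0 and 44.5 CPM in injured Lepr-ctrl nerves, and these overlapped. The 2 wpc rise was 1.81-fold (edgeR adjusted p = 1.83e-06), and the 4 wpc log2 fold change of -0.31 ± 0.15 (SE) did not pass (edgeR adjusted p = 0.0633). Eno1, the ubiquitous enolase, fell in all 4 comparisons by log2 fold changes of -0.72 to -1.02, and Gapdh, the enzyme that reduces NAD in glycolysis, by -0.73 to -0.84. Pgam2, the muscle-type phosphoglycerate mutase, was at 1.71, 1.45, 1.69, 1.80 and 2.14 CPM in healthy and 0.522, 1.39, 0.991 and 0.747 CPM in injured Lepr-ctrl nerves at 4 wpc. That fall had an edgeR adjusted p of 0.0480, rested on levels near 1 CPM and did not pass with the animal as a replicate block (-0.97 on the log2 scale, edgeR adjusted p = 0.0902) or in the other 3 comparisons. Pkm, pyruvate kinase of all tissues but liver and red cells, fell in Lepr-cKO nerves at 2 wpc (log2 fold change -0.44 ± 0.12, SE, edgeR adjusted p = 0.00179) and rose in Lepr-ctrl nerves at 4 wpc (0.36 ± 0.12, SE, edgeR adjusted p = 0.0103), a call that ended without the expression filter (edgeR adjusted p = 0.0529).

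Several of these genes share sequence with pseudogenes and paralogs, so that their levels are uncertain. Of all 50-base stretches of the principal transcript, the length of the reads, 82.5% also occur in another annotated gene for Gapdh, 72.2% for Eno1 and 68.0% for Pgk1, 44.2% for Mpc1, 41.5% for Pgam1 and 34.4% for Pkm. The share was 30.3% for Pdhb and 16.9% for Pdha1, and it was 27.0% for Ldhb and 17.1% for Ldha. For Gpi1 it was 25.3%, for Pfkfb2 25.1%, for Pfkp 17.1%, for Aldoa 13.9% and for Tpi1 7.51%. For Pdk4 it was 1.43%, and no such stretch was found for Hk1, Hk2, Hk3, Pfkm, Aldoc, Pfkfb4 and Slc16a1. How reads with several matches were counted is not given in the sources used here. Gapdh, often one of the most abundant transcripts of a tissue, stood at 23.3 ± 4.77 CPM (SD, n = 5) in healthy Lepr-ctrl nerves at 2 wpc.

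Of the lactate dehydrogenases, Ldhb fell and Ldha rose. Ldhb, the H subunit that favours oxidation of lactate, was at 368, 359, 332, 358 and 407 CPM in healthy and 119, 95.7, 126.2, 58.9 and 124.6 CPM in injured Lepr-ctrl nerves at 2 wpc. No injured library reached a healthy one, the lowest being replicate 4 at 58.9 CPM, and Ldhb fell 3.48-fold (log2 fold change -1.80 ± 0.16, SE, edgeR adjusted p = 1.02e-11). In Lepr-cKO nerves at 2 wpc it was at 309 to 420.4 (median 381) CPM in healthy and 130.6, 87.1, 71.2 and 105 CPM in injured libraries, 3.79-fold lower (edgeR adjusted p = 1.06e-11). At 4 wpc it was at 372, 338, 350.3, 348 and 377 CPM in healthy and 125.2, 125.4, 156 and 111 CPM in injured Lepr-ctrl nerves. Lepr-cKO nerves at 4 wpc had 374, 346, 342, 292 and 372 CPM in healthy and 199, 160.4, 189 and 117 CPM in injured libraries. The falls at 4 wpc were 2.76-fold and 2.08-fold, without overlap (edgeR adjusted p = 5.14e-09 and 2.88e-06).

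Ldha, the M subunit that favours lactate production, went the other way. It was at 93.1, 107, 85.2, 87.7 and 101 CPM in healthy and 143.9, 189, 159, 211 and 142 CPM in injured Lepr-ctrl nerves at 2 wpc, and at 100.4, 76.7, 76.5, 91.8 and 85.3 and 166, 190.3, 137.9 and 169.7 CPM at 4 wpc. Injured and healthy groups did not overlap at either time, and Ldha rose 1.78-fold and 1.93-fold (edgeR adjusted p = 8.48e-07 and 2.40e-07). In injured Lepr-cKO nerves it was at 121, 182, 199 and 120.1 CPM at 2 wpc and 133, 129.6, 117 and 167 CPM at 4 wpc, rises of 1.57-fold and 1.51-fold (edgeR adjusted p = 4.20e-05 and 3.67e-04).

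Of the monocarboxylate transporters, Slc16a1 and Slc16a3 moved apart at 2 wpc. Slc16a1 encodes MCT1, through which lactate is shared between glia and axons. It was at 116, 89.7, 96.5, 101 and 103 CPM in healthy and 60.0, 54.7, 70.9, 15.4 and 51.9 CPM in injured Lepr-ctrl nerves at 2 wpc, and at 90.5, 74.4, 85.6, 76.9 and 80.5 and 25.1, 56.2, 45.0 and 33.8 CPM at 4 wpc. The injured libraries lay below the healthy ones at both times, with the lowest value in replicate 4 at 2 wpc, and Slc16a1 fell 1.997-fold at 2 wpc and 2.03-fold at 4 wpc (edgeR adjusted p = 0.00315 and 0.00511). With the animal as a replicate block, the 2 wpc change was -0.72 on the log2 scale and no longer passed (edgeR adjusted p = 0.0553).

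In Lepr-cKO nerves Slc16a1 was at 75.6 to 112 (median 98.0) CPM in 6 healthy and 57.7, 24.6, 24.0 and 54.3 CPM in 4 injured libraries at 2 wpc, a 2.44-fold fall (edgeR adjusted p = 4.44e-04). At 4 wpc the healthy Lepr-cKO libraries were at 96.1, 88.0, 81.9, 112 and 98.7 CPM and the injured ones at 81.0, 107, 88.6 and 24.5 CPM. Of the injured ones, 3 lay at or near the healthy range and replicate 4 far below it, and the log2 fold change of -0.34 ± 0.31 (SE) did not pass (edgeR adjusted p = 0.352). Replicate 4 also had the lowest myelin marker sum of these 4 libraries, 15417 CPM against 25068 to 33034 CPM, the highest macrophage sum, 2040 CPM against 1211 to 1781 CPM, and the highest mitochondrial share, 20.2%. The part of these differences in the Slc16a1 level was not tested.

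Slc16a3 encodes MCT4, the lactate exporter of glycolytic cells, and was among the lowest of the 40 genes per length in healthy Lepr-ctrl nerves at 2 wpc. It was at 2.30, 2.41, 1.80, 2.31 and 2.26 CPM in healthy and 4.68, 4.44, 3.61, 7.88 and 4.09 CPM in injured Lepr-ctrl nerves, the highest in replicate 4. It rose 2.23-fold in Lepr-ctrl and 1.57-fold in Lepr-cKO nerves at 2 wpc, in both without overlap (edgeR adjusted p = 5.22e-07 and 0.00128). At 4 wpc its log2 fold changes of 0.26 ± 0.19 and 0.39 ± 0.18 (SE) did not pass (edgeR adjusted p = 0.229 and 0.0638). Slc16a7, which encodes MCT2, passed in no comparison.

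Genes for the entry of pyruvate into mitochondria fell in part. Mpc1, a subunit of the mitochondrial pyruvate carrier, was at 16.5, 16.7, 16.2, 16.5 and 19.8 CPM in healthy and 9.66, 15.3, 12.7, 11.6 and 9.51 CPM in injured Lepr-ctrl nerves at 2 wpc. It fell in all 4 comparisons, from 1.41-fold in Lepr-ctrl nerves at 4 wpc (edgeR adjusted p = 0.00241) to 1.905-fold in Lepr-cKO nerves at 2 wpc (edgeR adjusted p = 2.75e-07), each time without overlap. Its partner Mpc2 fell 1.27-fold in Lepr-ctrl and 1.16-fold in Lepr-cKO nerves at 2 wpc (edgeR adjusted p = 3.18e-04 and 0.0227) and did not pass at 4 wpc. The Lepr-cKO call ended when only the groups compared were fitted (edgeR adjusted p = 0.0648) and without injured replicate 2 or 3 (edgeR adjusted p = 0.164 and 0.0831). Pdha1, the catalytic alpha subunit of pyruvate dehydrogenase, was at 112, 119.9, 113, 116 and 108 CPM in healthy and 57.2, 88.8, 77.7, 55.4 and 56.4 CPM in injured Lepr-ctrl nerves at 2 wpc, 1.69-fold lower and without overlap (edgeR adjusted p = 3.78e-07). Pdhb, the beta subunit, rose by log2 fold changes of 0.33 to 0.52 over the 4 comparisons, so the counts of the 2 subunits of one enzyme moved apart, with the limit of shared sequence given above for Pdhb. Dlat, the second enzyme of the complex, passed in none.

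The PDH kinases, which phosphorylate and switch off the complex, also split. Pdk4, the kinase induced by fasting and fatty acids, was at 39.9, 37.6, 67.4, 48.6 and 60.1 CPM in healthy and 5.64, 12.1, 12.2, 6.14 and 7.04 CPM in injured Lepr-ctrl nerves at 2 wpc, and at 56.8, 143, 70.1, 60.4 and 94.6 and 26.9, 15.6, 16.02 and 25.0 CPM at 4 wpc. Healthy values varied widely, the highest being replicate 2 at 4 wpc, but no injured library reached them, and Pdk4 fell 5.84-fold and 4.09-fold (edgeR adjusted p = 3.05e-08 and 5.47e-06). In Lepr-cKO nerves it was at 38.8 to 127.5 (median 69.1) CPM in healthy and 6.98, 12.4, 6.68 and 17.95 CPM in injured libraries at 2 wpc. The falls in Lepr-cKO nerves were 6.78-fold at 2 wpc and 3.92-fold at 4 wpc (edgeR adjusted p = 2.67e-08 and 1.18e-05). Pdk2, the widely expressed kinase, was at 76.1, 66.8, 62.8, 64.7 and 82.9 CPM in healthy and 33.7, 28.9, 32.0, 21.7 and 32.5 CPM in injured Lepr-ctrl nerves at 2 wpc, without overlap. It fell 2.37-fold there and 3.22-fold in Lepr-cKO nerves (edgeR adjusted p = 3.19e-09 and 1.85e-11). Pdk3 rose in all 4 comparisons, from 13.2 ± 2.06 to 19.4 ± 2.66 CPM (SD, n = 5 each) in Lepr-ctrl nerves at 2 wpc (edgeR adjusted p = 5.38e-05). Pdk1, a target of hypoxia-inducible factor, rose only in Lepr-ctrl nerves at 4 wpc among these comparisons (log2 fold change 0.61 ± 0.18, SE, edgeR adjusted p = 0.00456), with 0.42 ± 0.18 (SE) in Lepr-cKO nerves (edgeR adjusted p = 0.0522).

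Levels of different genes can be set side by side only per length, here as CPM per kilobase of exon over all transcripts of a gene. In healthy Lepr-ctrl nerves at 2 wpc, Ldhb (232 ± 17.4, SD, n = 5) and Aldoa (217 ± 34.9) led and did not differ beyond their spread, followed by Slc2a1 (60.2 ± 4.72), Tpi1 (42.3 ± 3.65) and Pkm (35.6 ± 2.58). In injured Lepr-ctrl nerves at 2 wpc Aldoa led (124 ± 12.3, SD, n = 5), then came Slc2a1 (70.1 ± 12.2) and Ldhb (66.7 ± 18.1), which did not differ beyond their spread. Ldha (51.0 ± 9.03) came after them, within the spread of Ldhb. The order depended on the length used: per kilobase of the principal transcript, a scale added after the data were seen, Aldoa (419 ± 67.2) stood above Ldhb (279.6 ± 20.97) in healthy nerves, and Ldha (95.6 ± 16.9) came next after Aldoa (239 ± 23.7) in injured ones, not beyond its spread from Ldhb (80.4 ± 21.8) and Slc2a1 (75.3 ± 13.1). On the scale of all exons Slc16a3, Pfkfb1 and Hk3 were lowest in healthy nerves, at 0.416 ± 0.0450, 0.445 ± 0.0716 and 0.451 ± 0.164, which did not differ beyond their spread.

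Within families, the share of each isoenzyme in the summed CPM per kilobase was also computed. Hk1 made up 91.9% ± 1.06 (SD, n = 5) of the hexokinases in healthy Lepr-ctrl nerves at 2 wpc, and injured ones had 36.9% ± 12.1 (SD, n = 5). At 4 wpc the shares were 94.2% ± 1.05 (SD, n = 5) and 31.9% ± 5.47 (SD, n = 4). Among injured Lepr-cKO libraries its share was 48.5% ± 15.7 (SD, n = 4) at 2 wpc and 48.5% ± 11.9 (SD, n = 4) at 4 wpc. Hk3 took the larger part of the difference, and its share of injured Lepr-ctrl nerves was 45.1% ± 15.5 (SD, n = 5) at 2 wpc and 55.0% ± 5.68 (SD, n = 4) at 4 wpc. Which isoenzyme led there depended on the length used. Counted per base of the principal transcript, Hk1 kept 52.6% ± 14.2 (SD, n = 5) against 34.7% ± 15.7 for Hk3 at 2 wpc, and 47.6% ± 6.46 (SD, n = 4) against 42.8% ± 6.22 at 4 wpc. The fall of the Hk1 share from healthy to injured nerves was found on each scale.

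Ldhb made up 89.0% ± 0.82 (SD, n = 5) of lactate dehydrogenase in healthy Lepr-ctrl nerves at 2 wpc, and injured ones had 55.9% ± 11.8 (SD, n = 5). At 4 wpc its share in injured nerves was 62.0% ± 5.86 (SD, n = 4) in Lepr-ctrl and 71.3% ± 8.05 (SD, n = 4) in Lepr-cKO mice. Per base of the principal transcript the Lepr-ctrl shares at 2 wpc were 83.9% and 45.4%, and per 50-base stretch found in no other gene they were 85.7% and 48.7%, so that which subunit led in injured nerves depended on the length used. Pfkm went from 72.5% ± 0.92 to 48.6% ± 5.18 of phosphofructokinase (SD, n = 5 each) in Lepr-ctrl nerves at 2 wpc. Per base of the principal transcript it went from 58.6% to 31.3%, below the 40.2% of Pfkp in injured nerves, so that the leading subunit there depended on the length as well. Pdk4 went from 31.9% ± 5.69 to 10.7% ± 2.93 of the PDH kinases. These shares are descriptions of the deposited counts and were not tested.

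**Figure D3:**
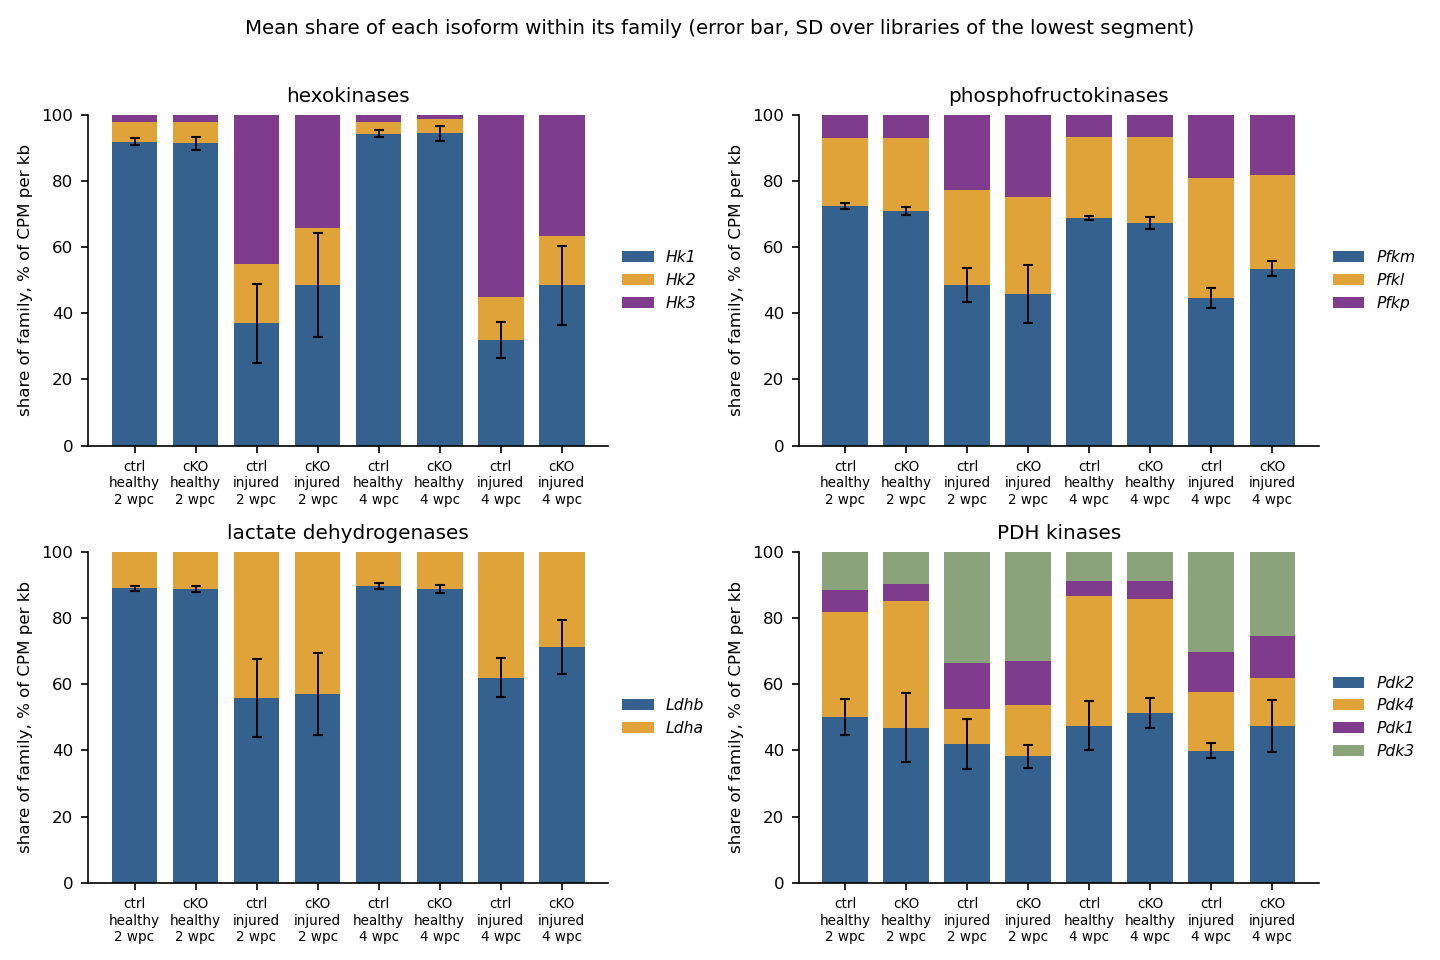
Mean share (% of the family's CPM per kilobase of exon) of each isoenzyme in hexokinases, phosphofructokinases, lactate dehydrogenases and PDH kinases, for the 8 groups without the library with muscle RNA; the error bar is the SD over libraries of the lowest segment. The lowest segments Hk1, Pfkm and Ldhb shrink in all injured groups, for example Ldhb from 89.0% to 55.9% in Lepr-ctrl nerves at 2 wpc.

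The injury response was then compared between 2 and 4 wpc, as the difference of the responses of 2 sets of mice. In Lepr-ctrl nerves, 5 of 40 genes had a more positive response at 4 wpc (4.4% of all genes) and 3 a more negative one (6.22% of all genes). The response of Aldoc was 1.81 ± 0.40 (SE) more positive on the log2 scale (edgeR adjusted p = 0.00342), that of Pkm 0.52 ± 0.17 (edgeR adjusted p = 0.0439) and that of Aldoa 0.46 ± 0.15 (edgeR adjusted p = 0.0451). Tpi1, the triose phosphate isomerase, and Mpc2 were more positive by 0.41 ± 0.14 and 0.39 ± 0.12 (SE, edgeR adjusted p = 0.0486 and 0.0262). Eno2, Pfkfb4 and Slc16a3 were more negative, by -1.17 ± 0.20, -0.97 ± 0.21 and -0.90 ± 0.25 (SE, edgeR adjusted p = 4.11e-04, 0.00268 and 0.0194). With the animal as a replicate block, 4 of these 8 passed (Aldoc, Pfkfb4, Eno2 and Pkm). Of the 19 fits that each left out 1 library, the call ended in 14 for Tpi1, 13 for Pkm, 12 for Aldoa and 5 for Mpc2, and in none for the other 4.

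In Lepr-cKO nerves 3 of 40 genes had a more positive response at 4 wpc and none a more negative one (2.36% and 1.03% of all genes). These were Pfkm (0.65 ± 0.13, SE, edgeR adjusted p = 0.00355), Pdk2 (0.86 ± 0.21, edgeR adjusted p = 0.0162) and Ldhb (0.87 ± 0.23, edgeR adjusted p = 0.0278), all of which had fallen at 2 wpc. The Ldhb call ended in 4 of the 13 fits that each left out 1 library (edgeR adjusted p of 0.0595 to 0.0779). DESeq2 called Aldoa, Tpi1 and Mpc2 as well, 6 of the 40, and it called 1083 among all genes against 624 by edgeR. The myelin marker sum of injured Lepr-cKO nerves was 15577 ± 5695 CPM (SD, n = 4) at 2 wpc and 26131 ± 7902 CPM (SD, n = 4) at 4 wpc, and its part in these differences was not tested. The course in Lepr-cKO nerves minus that in Lepr-ctrl nerves was called for none of the 40 genes (0% of all genes, edgeR), and 5 had an unadjusted p under 0.05, where 8.51% of all genes did, with the smallest adjusted p of 0.532 for Pfkm. A difference in course between the genotypes was therefore not shown. Healthy nerves of the 2 sets differed for few genes: in Lepr-ctrl mice none of the 40 was higher at 4 wpc and Mpc2 and Pdhb were lower (0.968% and 1.71% of all genes), and in Lepr-cKO mice Mpc2 was lower (0.174% and 0.495% of all genes higher and lower). Healthy libraries of the 2 times were without overlap for 5 of 40 genes in the control genotype (8.5% of all genes) and for 2 in the knockout (5.32%).

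**Figure D4:**
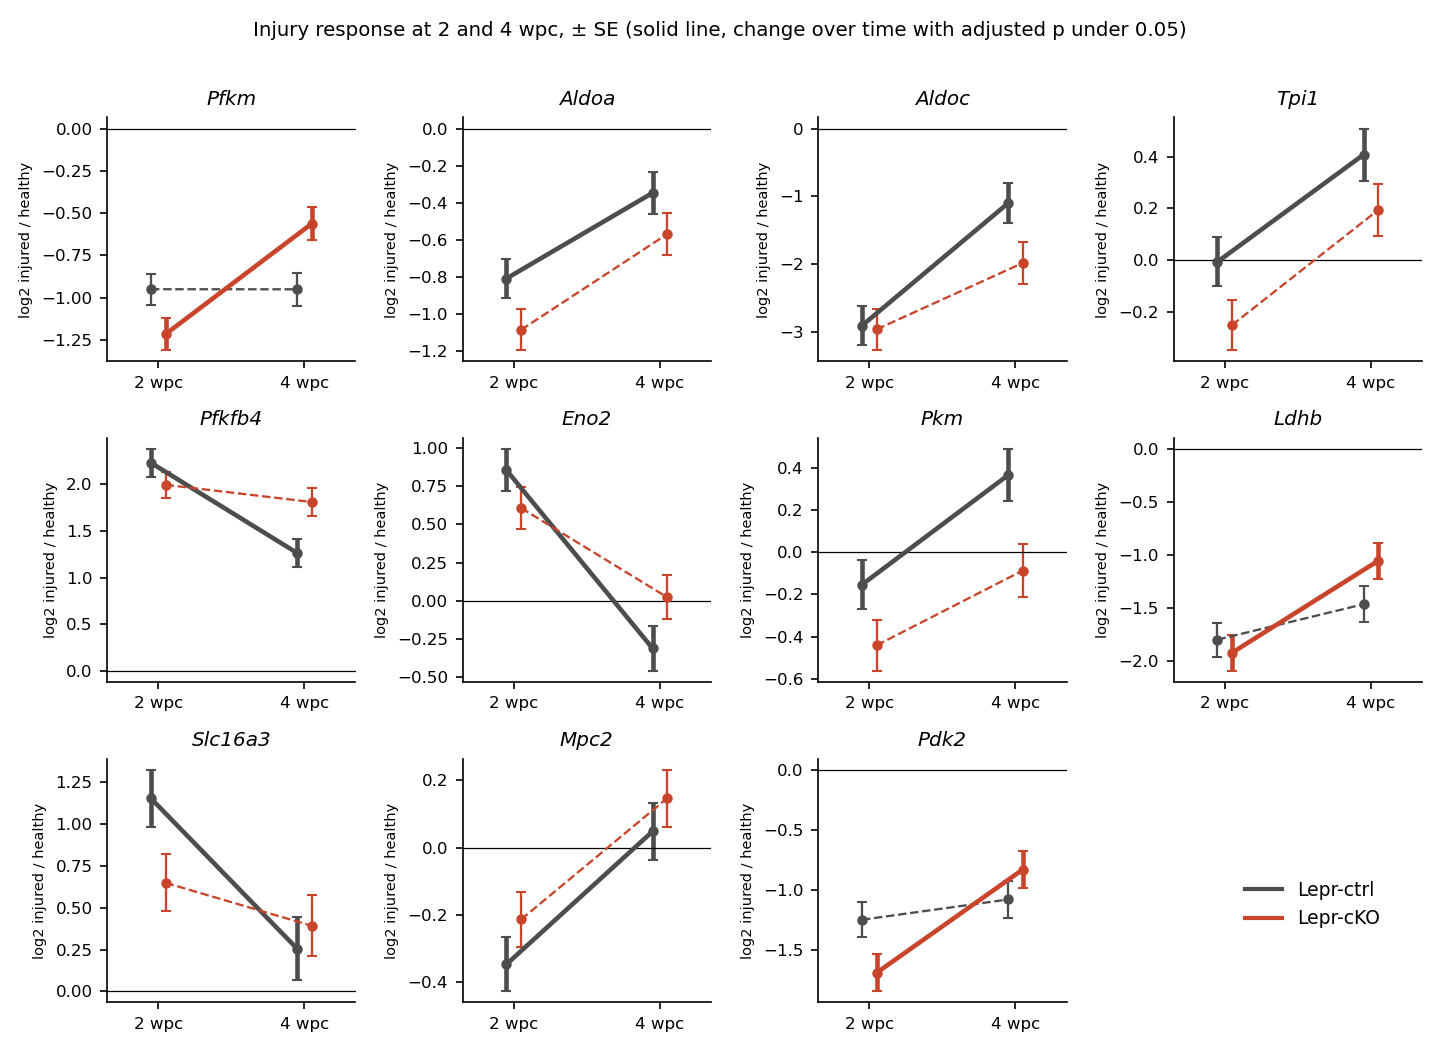
Injury response (log2 of injured over healthy, ± SE) at 2 and 4 wpc in Lepr-ctrl (grey) and Lepr-cKO (red) nerves for the 11 genes whose response differed between the times in either genotype; a solid line marks an edgeR adjusted p under 0.05 and a dashed line one above it. Aldoc in Lepr-ctrl nerves went from -2.91 to -1.10 and Eno2 from 0.86 to -0.31.

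No gene of the 40 was called between Lepr-cKO and Lepr-ctrl nerves by edgeR's test, in healthy or injured nerves at either time. On simulated counts the 4 wpc comparison of injured nerves called 57 of 100 genes set to differ 2-fold. A difference of that size can therefore be missed. In injured nerves at 2 wpc 0 of 40 were called (0.00544% of all genes), 6 had an unadjusted p under 0.05, all of them lower in Lepr-cKO, and DESeq2 called 0 of 40 and 4 genes in all. Among all genes 5.1% had such an unadjusted p. The groups overlapped for all 40 genes, where 0.587% of all genes were without overlap. The largest difference was in Hk3, at -1.04 ± 0.35 on the log2 scale (SE, edgeR adjusted p = 0.902), followed by Hk2 at -0.57 ± 0.25 (edgeR adjusted p = 0.943). When the library with muscle RNA was kept, Slc2a4, Pfkm, Pgam2, Eno3 and Pdk4 were called higher in Lepr-cKO nerves, where 107 genes were called in all. These 5 genes of the list were high in that library, with Pgam2 at 742 CPM against 0.35 to 2.14 CPM in the other 4.

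In injured nerves at 4 wpc, where 1.79% of all genes were called, edgeR called 0 of 40. When only the groups compared were fitted, 0 of all genes were called. An unadjusted p under 0.05 was found for 11 of 40, with 5 higher and 6 lower in Lepr-cKO, where 21.2% of all genes had one. DESeq2 called Aldoc and Pkm, but it also called more genes in all, 860 against 330 by edgeR. Pkm had 246, 273, 225 and 262 CPM in Lepr-ctrl and 172.5, 181, 159.5 and 228 CPM in Lepr-cKO nerves, with replicate 4 the only one within the Lepr-ctrl range. Its difference was -0.44 ± 0.13 on the log2 scale (SE, edgeR adjusted p = 0.0631), the smallest adjusted p of the list. Aldoc differed by -1.01 ± 0.33 (edgeR adjusted p = 0.0778), Hk3 by -0.95 ± 0.37 (edgeR adjusted p = 0.131) and Pfkm by 0.33 ± 0.10 (edgeR adjusted p = 0.0709). Groups did not overlap for 2 of 40 genes, where 5.7% of all genes were without overlap. These were Pfkm and Eno2, the latter at 53.1, 51.4, 53.0 and 44.5 CPM in Lepr-ctrl and 78.2, 63.4, 67.3 and 53.2 CPM in Lepr-cKO nerves, where the lowest Lepr-cKO value exceeded the highest Lepr-ctrl value by little. Slc16a1 was 0.91 ± 0.33 higher (SE, 95% interval 0.24 to 1.58, edgeR adjusted p = 0.107).

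The 4 wpc comparison rested on 1 library for several genes. Without replicate 4 of the injured Lepr-cKO group, 6 of 40 genes were called: Slc16a1, now 1.201 higher on the log2 scale (edgeR adjusted p = 0.00879), and Pfkfb4 were higher, and Hk3, Pfkl, Aldoc and Pkm were lower. Without replicate 3 of the injured Lepr-ctrl group, Aldoc and Pkm were called. The share of all genes called in these fits is not given here, so the calls are not set against it. The myelin marker sum of the 4 injured Lepr-cKO libraries was 33034, 25068, 31004 and 15417 CPM, against 16450, 17322, 19501 and 13018 CPM in Lepr-ctrl nerves, and the macrophage sum was 1781, 1731, 1211 and 2040 CPM against 1726, 3806, 2977 and 2983 CPM. Whether these differences in marker level bear on the genes above was not tested.

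**Figure D5:**
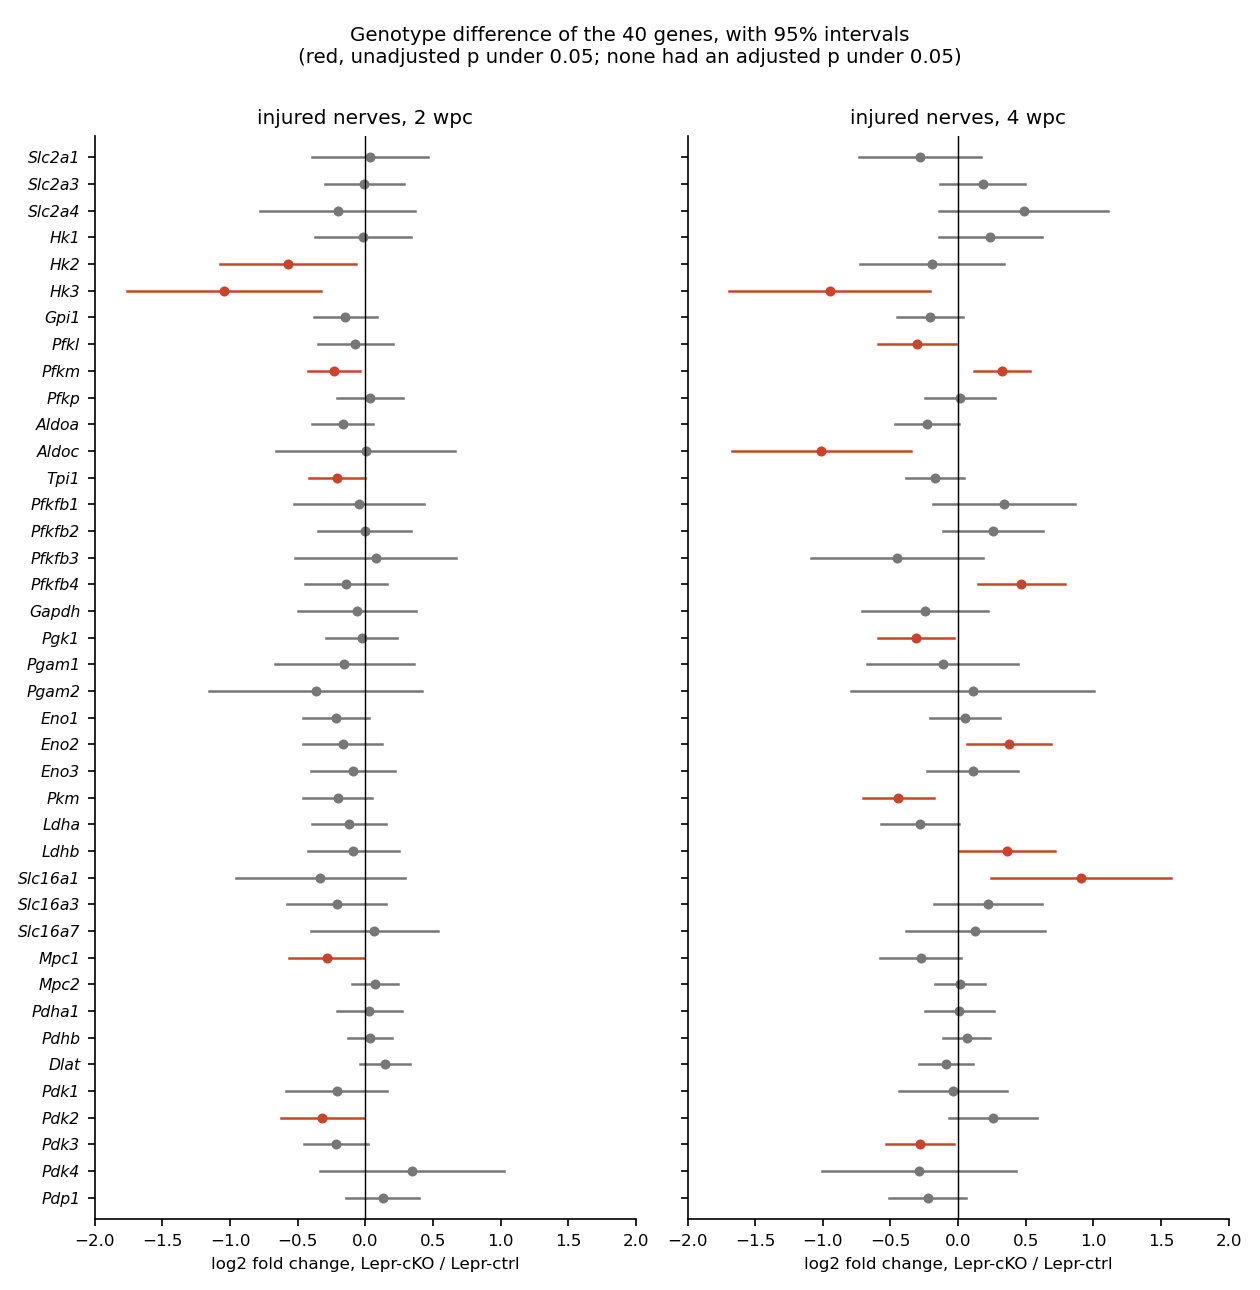
Log2 fold change of Lepr-cKO over Lepr-ctrl, with 95% intervals, for the 40 genes in injured nerves at 2 wpc (left) and 4 wpc (right), without the library with muscle RNA; red marks an unadjusted p under 0.05, and no gene had an edgeR adjusted p under 0.05. The interval of Slc16a1 at 4 wpc ran from 0.24 to 1.58 on the log2 scale.

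In healthy nerves, edgeR and DESeq2 each called 0 of 40 genes between genotypes at 2 wpc and at 4 wpc. Among all genes edgeR called 0.0109% at 2 wpc and 0.00544% at 4 wpc, and DESeq2 called 10 genes at each time. By edgeR, 0 and 1 genes of the 40 had an unadjusted p under 0.05 (1.37% and 2.1% of all genes). The 1 gene was Mpc1 at 4 wpc, at 19.5, 15.9, 19.2, 17.1 and 18.9 CPM in Lepr-ctrl and 17.4, 13.9, 14.6, 13.8 and 15.4 CPM in Lepr-cKO nerves, which overlapped (edgeR adjusted p = 1). Slc16a3 at 2 wpc was the 1 gene of the 40 without overlap (0.228% of all genes, and 0 of 40 against 0.658% at 4 wpc), at 2.21 ± 0.239 and 2.71 ± 0.238 CPM (SD, n = 5 and 6), with an edgeR adjusted p of 1. The injury response itself, compared between genotypes by an interaction term, was called for 0 of 40 genes by edgeR and by DESeq2 at 2 wpc and at 4 wpc. Among all genes edgeR called 0 at both times, and DESeq2 called 0 at 2 wpc and 2 at 4 wpc. An unadjusted p under 0.05 was found for 6 of 40 at 2 wpc, all lower in Lepr-cKO, and for 6 at 4 wpc, 3 in each direction, where 4.21% and 11.8% of all genes had one. The smallest adjusted p was 0.335, for Pfkm at 4 wpc. Calls that passed in one genotype and not in the other, such as Slc16a1 at 4 wpc, are thus not shown to differ between genotypes.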

How the data were processed

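Per the labels and methods, libraries were made with the TruSeq RNA v2 kit and sequenced as single reads of 50 bases. The authors demultiplexed them with bcl2fastq 2.20.0.422, aligned them with STAR 2.5 to GRCm38 with up to 2 mismatches, and counted them per gene with featureCounts 1.5.0-p1. The deposited files hold raw counts per gene; the use of strand and the handling of reads with several matches are not given in the sources used here.

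Groups were taken from the labels. Counts were fitted with edgeR 4.0.16 (quasi-likelihood F test, TMM scaling, one mean per group, R 4.3.3) in 38 libraries, after a filter of 10 counts set by group size and 15 in total, with Benjamini-Hochberg adjustment over 18394 genes. The injured Lepr-cKO library with muscle RNA was left out. Named genes were Hk1, Hk2, Ldha, Ldhb and Slc16a1, the gene with the largest called change of each role, and up to 8 called between genotypes or times; the others are named for completeness after their values were seen. The members and lists were chosen with earlier results of these data known. One gene of the myelin and Schwann cell markers is not reported here, and the sums leave it out. Both nerves of 16 animals entered the fit. Their deviations from the group means over 5000 genes correlated at -0.118 to 0.567 (median 0.348), above 0.1 in 14, and since the pair is one animal, a fit with the animal as a replicate block was run. Other alternatives were DESeq2 1.42.0 and its size factors, mitochondrial genes left out, other filters, the groups compared alone, the study's fold threshold, and each library of the groups of 4 or 5 left out in turn. Sex was not a covariate. Intervals are 95%. The fit was tested on simulated counts with 100 genes changed 2-fold and 100 changed 4-fold. It called 68 and 90 of them after injury (Lepr-ctrl, 2 wpc), and 57 and 84 between genotypes (injured, 4 wpc). Figures were drawn with matplotlib 3.10.9.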

Additional observations from a re-analysis of the deposited data

Results flagged for a closer look

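Single libraries stood far from their group for 5 genes. Each highest or lowest library of the named genes was set against the rest of its group by Dixon's criterion, which passes about 1 group in 20 by chance, and 7 groups, or 4.86% of those tested, passed. In healthy Lepr-ctrl nerves at 2 wpc, replicate 3 was lowest for Pgam2 at 0.910 CPM and for Slc16a3 at 1.80 CPM, and replicate 5 was highest for Mpc1 at 19.8 CPM. In injured Lepr-ctrl nerves at 2 wpc, replicate 4 was highest for Hk3 at 77.2 CPM and for Slc16a3 at 7.88 CPM, and it also had the highest mitochondrial share of all libraries (33.04%). In healthy Lepr-cKO nerves at 4 wpc, replicate 4 was lowest for Pfkm at 62.3 CPM and for Pgam2 at 0.670 CPM.

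By edgeR's test of the difference itself, the injury response at 4 wpc differed from that at 2 wpc for 11 genes, 8 of them in the control genotype. Among all genes, 4.4% had a more positive and 6.22% a more negative response in Lepr-ctrl nerves, and 2.36% and 1.03% in Lepr-cKO nerves. In Lepr-ctrl nerves the difference (4 wpc minus 2 wpc, log2 scale) was 1.81 for Aldoc, 0.52 for Pkm, 0.46 for Aldoa, 0.41 for Tpi1 and 0.39 for Mpc2, and -1.17 for Eno2, -0.97 for Pfkfb4 and -0.90 for Slc16a3. In Lepr-cKO nerves it was 0.87 for Ldhb, 0.86 for Pdk2 and 0.65 for Pfkm. With the animal as a replicate block, Aldoa, Tpi1, Mpc2 and Slc16a3 no longer passed in Lepr-ctrl nerves, and the 3 calls in Lepr-cKO nerves held, although that of Ldhb ended in 4 of the 13 fits that each left out 1 library. None of these differences was itself shown to differ between genotypes.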

How the results depend on the processing

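Over all settings other than leaving out a library, 527 log2 fold changes of the named genes kept direction and side of the threshold, 22 no longer passed and 4 turned. All 4 turned when the library with muscle RNA was kept: Pfkm in Lepr-cKO nerves at 2 wpc to 1.86, Mpc2 there to 0.069, and the Lepr-cKO courses of Pfkm and Pdk2 to -2.41 and -0.17. With that library kept, 5 genes were called between genotypes in injured nerves at 2 wpc, 3 in the Lepr-ctrl course, and the split of calls in Lepr-cKO nerves at 2 wpc was 21 higher and 6 lower. Among all genes, 107, 1678 and 12014 were called in these comparisons, in that order. Under the study's added fold threshold, 11, 13, 10 and 8 genes were called after injury (Lepr-ctrl and Lepr-cKO at 2 wpc, then at 4 wpc), where 34.6%, 34.6%, 36.5% and 28.2% of all genes were. It left 2 genes in the Lepr-ctrl course and 0 in the Lepr-cKO course, for which the share of all genes is not given here. DESeq2 called 2 genes between genotypes in injured nerves at 4 wpc (860 among all genes) and 6 in the Lepr-cKO course (1083 among all genes). In that course a minimum of 10 counts in every library also gave 6 (656 among all genes). The Lepr-ctrl course had 4 calls without the expression filter (1369 among all genes) and 4 with the animal as a replicate block (2106 among all genes). Among the 40 genes the block ended 5 calls after injury: Slc16a1 in Lepr-ctrl nerves at 2 wpc, Pfkfb2, Pgam2 and Pgk1 in those at 4 wpc, and Tpi1 in Lepr-cKO nerves at 2 wpc. Leaving out in turn each library of the groups of 4 or 5 (the 6 healthy Lepr-cKO libraries at 2 wpc were always kept) gave 27 to 28, 27 to 28, 25 to 29 and 21 to 24 calls after injury, 0 to 0 between genotypes in injured nerves at 2 wpc, 0 to 6 at 4 wpc (6 without replicate 4 of Lepr-cKO, 2 without replicate 3 of Lepr-ctrl), 0 to 0 in healthy nerves at either time and for both interactions, 4 to 8 in the Lepr-ctrl course and 2 to 4 in the Lepr-cKO course. Calls that ended in some of these fits were Pgam2, Pgk1 and Pfkfb2 after injury in Lepr-ctrl nerves at 4 wpc, Mpc2 (without injured replicate 2 or 3), Pdp1 and Tpi1 after injury in Lepr-cKO nerves at 2 wpc, the Lepr-ctrl courses of Aldoa, Mpc2, Pkm and Tpi1, and the Lepr-cKO course of Ldhb. The cause of these changes was not tested, and the shares of all genes called in the fits with a library left out are not given here. The isoenzyme shares, for which scales per transcript base were added after the data were seen, moved by more than the spread between libraries in 39 of 54 values. Genes near 1 CPM (Pgam2, Aldoc, Slc16a3, Hk3 in healthy nerves) have the least precise levels.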

Other observations

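Neighbouring pathways, taken from lists kept beside the 40 genes, were counted in the same fit, and their shares are to be read against all genes (35.1% rose and 30.7% fell in Lepr-ctrl nerves at 2 wpc, 32.7% and 32.3% at 4 wpc). Of 14 genes of glycogen metabolism, 5 rose and 5 fell in Lepr-ctrl nerves at 2 wpc, and 8 rose and 3 fell at 4 wpc. Ppp1r3c, which targets protein phosphatase 1 to glycogen, rose with a log2 fold change of 2.21 at 2 wpc and 3.38 at 4 wpc (edgeR adjusted p = 1.17e-07 and 7.43e-11), and Pygb, the brain glycogen phosphorylase, fell (-1.56 and -1.25, edgeR adjusted p = 1.26e-12 and 1.27e-09). In the same nerves Pcx, pyruvate carboxylase, which feeds pyruvate to oxaloacetate, went from 78.0 ± 7.22 to 15.7 ± 5.48 CPM at 2 wpc (SD, n = 5 each, edgeR adjusted p = 1.56e-12). Of 9 transporter chaperones and other monocarboxylate carriers, 6 passed the expression filter, and of these 4 rose and none fell in Lepr-ctrl nerves at 2 wpc and at 4 wpc. Among them Emb, the ancillary protein embigin of monocarboxylate transporters, rose from 1.87 ± 0.611 to 10.3 ± 5.04 CPM (edgeR adjusted p = 2.87e-07). In Lepr-ctrl nerves at 2 wpc 3 rose and none fell of the 5 gluconeogenesis genes that passed the filter (2 and 2 at 4 wpc), 1 rose and 4 fell of the 9 of 14 other glycolytic isozymes that passed it (1 and 8 at 4 wpc), 2 rose and 3 fell of 8 other parts of the pyruvate dehydrogenase complex (1 and 3), and 6 rose and 3 fell of 14 regulators of glycolysis (3 and 6).

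Of 8 genes of the pentose phosphate pathway, 3 rose and 3 fell in Lepr-ctrl nerves at 2 wpc, and 5 rose and 2 fell at 4 wpc. Pgls, 6-phosphogluconolactonase, rose from 31.8 ± 7.84 to 78.1 ± 12.9 CPM (SD, n = 5 each, edgeR adjusted p = 6.71e-10). Of 14 hypoxia factors and their targets outside glycolysis, 4 rose and 5 fell in Lepr-ctrl and 3 rose and 6 fell in Lepr-cKO nerves at 2 wpc. Among them Car9, carbonic anhydrase 9, rose (2.15 on the log2 scale, edgeR adjusted p = 1.40e-06) and Ndrg1 fell (-2.20, edgeR adjusted p = 4.15e-12) in Lepr-ctrl nerves. Between genotypes in injured nerves at 4 wpc, the only gene of these lists that was called was Gyg, glycogenin, which starts glycogen chains (-0.83 on the log2 scale in Lepr-cKO, edgeR adjusted p = 0.0374). That call did not hold when only the groups compared were fitted, where 0 of all genes were called.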
